A study of Mus musculus with 18 samples.

Results

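The data described here follow C2C12 cells, a mouse myoblast line that withdraws from the cell cycle and forms multinucleated myotubes when serum is lowered, over their opening day of differentiation after knockdown of Stac3. Stac3 encodes a muscle adaptor protein of the machinery that couples membrane excitation to calcium release. The comparison sets 4 samples of STAC3 RNAi cells at day 1 against 4 samples of STAC3 RNAi cells at day 0, and these were chosen by their columns in the deposited table of normalised expression values. They make up 8 of the 15 samples and 9 of the 18 arrays of the study, since replicate 1 of day 1 was hybridised again and its 2 arrays were averaged. Cells received an Invitrogen RNAi against STAC3 or an Invitrogen control RNAi of high GC content. At day 0 the cells had carried the RNAi for 24 h in growth medium, which is DMEM with 20% fetal bovine serum (FBS). At day 1 they had carried it for 48 h, the last 24 h of them in differentiation medium with 2% FBS. The day 1 minus day 0 change therefore holds the change of medium, the passage of time and the longer exposure to the RNAi, and these cannot be told apart. The 3 control samples at day 0 and 4 control samples at day 1 went through the same change and are the reference for it. A single RNAi against STAC3 was used. The labels call the samples biological, without saying that they came from separate transfections, so the p-values measure the spread between these samples.

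Myoblasts in high serum cycle, and Id proteins hold the myogenic transcription factors in check. When serum falls, cyclins, the replication machinery and the mitotic genes are shut down, the CDK inhibitor p21 (Cdkn1a) accumulates, and MyoD switches on myogenin (Myog). Myogenin and its partners then turn on fusion proteins, sarcomere proteins, the acetylcholine receptor and the calcium release machinery. The questions here are which of these steps were seen in the knockdown cells during the day, and where the change differed in size from that in control cells.

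Values are log2 expression after the authors' normalisation, with a value for each probe and array. A change is the day 1 mean minus the day 0 mean on that scale, with its standard error (SE) from limma, and 4 samples stand on each side. Adjusted p-values are Benjamini-Hochberg values from limma's moderated fit over 18408 probes, and a gene is represented by its brightest probe. Probes below about 6.87 were at the level where Illumina's detection call fails, so changes of genes near it are compressed. The arrays detected 15146 to 16802 probes each. Stac3 itself lay below that level in all 8 knockdown samples, at 6.70, 6.68, 6.79 and 6.75 on day 0 and at 6.74, 6.74, 6.70 and 6.81 on day 1. In the control samples it was at 7.04, 6.98 and 7.15 on day 0 and at 7.53, 7.69, 7.52 and 7.97 on day 1. The control values were all above all the knockdown values. Control cells rose by 0.62 (adjusted p = 4.26e-05), knockdown cells did not pass (0.02, adjusted p = 0.878), and the difference passed (adjusted p = 0.00982). Of the myoblast and myotube markers, Des (desmin), the muscle intermediate filament, passed with a rise of 0.59. Myod1 was above the detection level in all 8 samples and fell between the days. Myog, Acta1, Mylpf, Tnnc2 and Chrna1 rose, Mef2c, Ckm and Mymk did not pass, and Myf5 was not among the genes tested. The arrays form a set of 12 with higher and a set of 6 with lower median raw intensity. Both sets hold day 0 and day 1 knockdown samples, with day 0 replicate 4, day 1 replicate 3 and the repeat of day 1 replicate 1 in the dimmer set. The dimmer set thus holds only 1 day 0 array of each treatment. A threshold missed in a fit within it does not show that a change is absent. Replicate 4 of day 1 stood apart, with 50 genes more than 2-fold from the other 3 samples of its group, against 5 to 12 for the others, and replicate 4 of day 0 had 9.

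A large part of the measured genes moved within the day. Of 10146 genes, 2454 rose (24.2%) and 2146 fell (21.2%) at an adjusted p below 0.05 in the knockdown cells. A change of at least 2-fold was seen for 191 risen genes (1.88%) and 235 fallen genes (2.32%). The 4 day 1 samples lay wholly above the 4 day 0 samples for 2216 genes (21.8%) and wholly below them for 1941 (19.1%). In control cells 2100 genes rose (20.7%) and 1940 fell (19.1%). Counted by probe, 3807 rose (20.7%) and 3821 fell (20.8%) in knockdown cells, and 3267 rose (17.7%) and 3332 fell (18.1%) in control cells. The knockdown and control counts rest on separate samples. Of the genes that rose in the knockdown cells, 1501 also rose in control cells, which is 61.2% of the former and 71.5% of the latter. Of those that fell, 1469 also fell in control cells, or 68.5% and 75.7%. Along the leading principal component of all samples, which held 56.7% of the variance, knockdown samples went from between -34.2 and -31.9 on day 0 to between 15.3 and 16.6 on day 1. Control samples went from between -22.7 and -15.7 to between 28.1 and 34.2.

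**Figure D1:**
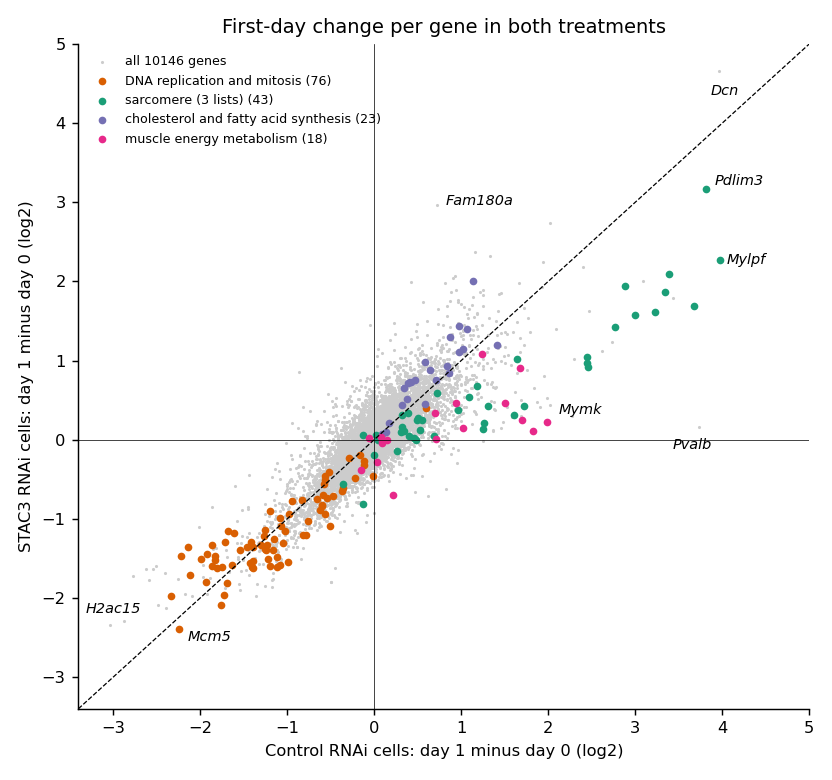
Change from day 0 to day 1 in control RNAi cells (x axis, log2) against the change in STAC3 RNAi cells (y axis, log2), 1 point for each of 10146 genes, with the dashed line marking equal change. Replication and mitosis genes (orange) fall in both treatments and lie along the line, sarcomere (green) and muscle energy genes (pink) lie mostly below it, and cholesterol synthesis genes (purple) rise in both.

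The 15 genes with the largest rises included genes of the matrix, the Z-disc and growth arrest. Dcn (decorin), a small proteoglycan that coats collagen fibrils, stood at 7.67, 7.76, 7.67 and 7.61 on day 0 and at 12.35, 12.12, 12.84 and 12.04 on day 1. The groups are far apart, and the rise of 4.66 (SE 0.23, adjusted p = 6.29e-10) equals 25.3-fold. In control cells Dcn rose by 3.96. Pdlim3, a PDZ and LIM protein of the muscle Z-disc, stood at 7.71, 7.83, 7.86 and 8.74 on day 0 and at 10.69, 10.62, 11.37 and 12.14 on day 1. Replicate 4 was the highest sample on each day, and the groups did not overlap (rise 3.17, SE 0.33, adjusted p = 1.11e-06). Ypel3, a gene linked to growth arrest and senescence, went from 9.44, 9.55, 9.51 and 9.50 to 12.19, 12.31, 12.19 and 12.29. The replicates of a day lay close together, and the rise was 2.74 (SE 0.07, adjusted p = 1.86e-12) against 2.02 in control cells, a difference that itself passed (adjusted p = 0.00194). Gadd45a, a stress-induced protein that restrains the cell cycle, rose from 9.52, 9.50, 9.47 and 9.44 to 11.83, 11.91, 11.38 and 11.76, a change of 2.24 (SE 0.10, adjusted p = 1.88e-10). Also among the 15 were Fam180a (2.97), Mgp (2.37), an inhibitor of calcification, Mmp2 (2.32), a gelatinase, Mylpf (2.27), the fast skeletal regulatory myosin light chain, Ly6c1 (2.18), Actc1 (2.09), the cardiac actin that developing skeletal muscle also uses, Slc40a1 (2.07), the iron exporter ferroportin, Cp (2.04), the copper oxidase ceruloplasmin, Tgm2 (2.01), a transglutaminase, Mvd (2.00), an enzyme of cholesterol synthesis, and Klhl24 (1.98).

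The 15 largest falls held many genes of DNA replication. Mcm5, a subunit of the MCM helicase that licenses origins, was the gene with the largest fall, from 11.33, 11.33, 11.47 and 11.40 to 8.81, 8.83, 9.20 and 9.11. The change of -2.40 (SE 0.10, adjusted p = 1.88e-10) leaves a wide gap between the groups. Of the 15 largest falls, 4 were histone H2A genes, namely H2ac15 (-2.34), H2ac12 (-2.29), H2ac11 (-2.08) and H2ac21 (-1.95). The others were Tk1 (-2.12), thymidine kinase, Fen1 (-2.09), the flap endonuclease of lagging strands, Ccne2 (-1.98), cyclin E2, Lmnb1 (-1.98), lamin B1, Birc5 (-1.98), survivin, Mcm10 (-1.96), a replication initiation factor, Rrm2 (-1.95), the small subunit of ribonucleotide reductase, Clspn (-1.90), the checkpoint adaptor claspin, Tyms (-1.88), thymidylate synthase, and Mthfd2 (-1.86), the mitochondrial folate enzyme. Averaging all the kept probes of a gene in place of the brightest moved 33 of the named genes by over 1.5 times toward 0, with 0 calls lost. Among the largest changes these were Dcn (2.85), Ypel3 (1.37), Actc1 (1.23), Klhl24 (1.01), Lmnb1 (-1.20), Clspn (-1.20) and Tyms (-0.75).

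The promoters of a replication gene, a mitosis gene and a muscle gene are shown as examples. Letters in capitals are all matches in them of the motifs searched on both strands. These motifs were those named here, TATAAA and the MEF2 motifs CTAAAAATA and CTATTTATA. The windows shown are the 250 bases before the start site in RefSeq, build GRCm38.p6, written 5′ to 3′ on the strand of the gene. Mcm5 lies at chr8:75109259-75109508 on the plus strand, and its capitals mark the E2F motif TTTCGCGC, 153 bases before the start, overlapping by 4 bases the motif TTTGGCGC read on the other strand as GCGCCAAA, 149 bases before it, and CCAAT boxes 77 and 22 bases before it. E2F factors drive replication genes in cycling cells. Cdk1 lies at chr10:69352913-69353162 on the minus strand, and its capitals mark CCAAT boxes read on the other strand as ATTGG, 208, 80 and 48 bases before the start, the E2F motif TTTCGCGC, 131 bases before it, and the CHR motif TTTGAA, 71 and 15 bases before it. CCAAT boxes and CHR motifs are known from promoters of G2 and mitosis genes. Chrng, the fetal gamma subunit of the acetylcholine receptor, lies at chr1:87205561-87205810 on the plus strand, and its capitals mark the E-box CAGCTG, 155 and 132 bases before the start. MyoD and myogenin bind E-boxes of this kind.
Mcm5: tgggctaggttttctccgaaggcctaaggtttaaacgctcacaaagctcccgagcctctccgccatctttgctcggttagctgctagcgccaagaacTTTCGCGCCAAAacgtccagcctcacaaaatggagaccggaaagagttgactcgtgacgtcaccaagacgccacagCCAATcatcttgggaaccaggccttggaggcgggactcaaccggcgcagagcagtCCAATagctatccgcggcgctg
Cdk1: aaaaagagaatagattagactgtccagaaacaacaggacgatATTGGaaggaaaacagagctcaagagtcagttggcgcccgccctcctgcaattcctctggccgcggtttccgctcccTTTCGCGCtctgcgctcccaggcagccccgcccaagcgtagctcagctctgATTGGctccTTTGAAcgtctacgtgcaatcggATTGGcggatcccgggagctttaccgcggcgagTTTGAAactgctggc
Chrng: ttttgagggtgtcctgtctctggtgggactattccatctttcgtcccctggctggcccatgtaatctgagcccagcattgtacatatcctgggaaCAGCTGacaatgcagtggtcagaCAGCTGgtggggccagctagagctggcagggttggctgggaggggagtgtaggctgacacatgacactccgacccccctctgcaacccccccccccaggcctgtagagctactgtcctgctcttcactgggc

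Motif shares in such windows were set beside those of all promoters. The 228 windows of genes that fell at least 2-fold held the E2F motif in 4.8%, CCAAT in 51.3% and TTTGAA in 17.1%. All 32851 windows held them in 0.7%, 33.8% and 16.0%, and the windows of tested genes in 1.3%, 35.0% and 10.4%. The windows of genes that rose at least 2-fold held them in 1.7%, 44.5% and 8.7%, so CCAAT was above the share of all windows on both sides. CCAAT stood in 73.0% of mitosis windows, 54.8% of replication windows, 85.3% of histone windows and also in 73.9% of those of the cholesterol genes, which rose. TTTGAA stood in 43.2% of mitosis, 41.2% of histone and 12.9% of replication windows, and the E2F motif in 5.4%, 17.6% and 12.9%. The E-box CAGCTG stood in 21.4% of the windows of genes that rose at least 2-fold, in 38.1% of those of sarcomere genes and in 13% of all windows. A match in a window is a description of the sequence.

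The replication programme fell as a whole. All 35 measured replication and licensing genes fell, with a median of -1.26, against 21.2% of all genes that fell and a median of 0.02 over all genes. Mcm4, another helicase subunit, changed by -1.80 (SE 0.13, or -0.94 as the mean of its probes) and Rrm1, the large subunit of ribonucleotide reductase, by -1.68. Of 18 genes for DNA precursors 17 fell (median -1.06). The mean level of the replication list lay between 9.446 and 9.563 in the 4 day 0 samples and between 8.203 and 8.337 in the 4 day 1 samples. In control cells 33 of the 35 fell, with a median of -1.07. Fen1 shows how tight the change was, at 11.16, 11.11, 11.17 and 11.19 on day 0 and at 9.0, 8.99, 9.22 and 9.06 on day 1.

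Of 41 measured mitosis genes 39 fell (median -1.30, control median -1.40). Cdk1, the kinase that drives entry into mitosis, went from 11.52, 11.46, 11.62 and 11.52 to 9.87, 9.56, 9.77 and 9.70, a change of -1.80 (SE 0.11, adjusted p = 4.56e-09), or of -0.93 as the mean of its probes. All day 1 samples were well below all day 0 samples. Aurka, the spindle pole kinase, fell (-1.71), as did Mad2l1, the spindle checkpoint protein (-1.62). The member whose probe rose was Kif23, a kinesin of the cytokinesis midzone, singled out after its values were seen, at 0.40 (adjusted p = 0.0261). Its 2 other probes went down, the mean of its probes fell by 0.86, and its call was lost without day 0 replicate 1 (0.28), day 0 replicate 3 (0.36) or day 1 replicate 3 (0.32). The list means lay at 9.383 to 9.459 on day 0 and at 8.242 to 8.419 on day 1.

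Of the 19 regulators of entry into S phase, 11 fell (57.9%, against 21.2% of all genes), 0 rose and 8 did not pass (median -0.36). In control cells 9 fell and 3 rose (median -0.16). The difference was negative and passed for 6 of the 19, against 2.7% of all genes. Cyclin E2 (Ccne2), which activates CDK2 before replication, was at 9.26, 9.29, 9.29 and 9.01 on day 0 and at 7.08, 7.25, 7.14 and 7.45 on day 1. It changed by -1.98 (SE 0.08), beyond the -1.36 of control cells (adjusted p of the difference 0.00819). Cyclin E1 (Ccne1) fell (-0.95), as did Tfdp1, the DNA-binding partner of E2F factors (-1.05). Cyclin D1 (Ccnd1), the serum-responsive cyclin, fell by 0.76, close to the -0.79 of control cells. E2f1, the activator of replication genes, moved in opposite directions in the 2 treatments and was singled out after its values were seen. It went from 10.19, 10.11, 10.10 and 10.11 to 9.33, 9.46, 9.51 and 9.35 in knockdown cells and from 8.95, 8.96 and 8.92 to 9.68, 9.47, 9.65 and 9.42 in control cells. It started higher in the knockdown cells, and the day 1 values of the treatments overlap. The changes were -0.71 and 0.61, and the difference of -1.33 passed with an adjusted p of 5.01e-06.

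Histone genes of the replication-dependent clusters split in direction. Of 38 measured, 22 fell and 10 rose (median -0.20, control median -0.29). The share that rose, 26.3%, was near that of all genes. The difference from control was positive and passed for 9 of the 38, against 2.77% of all genes, and negative for 0, and most of the 9 were H2A genes that fell less than in control cells. H2ac15 went from 13.54, 13.70, 13.68 and 13.43 to 11.33, 11.34, 11.15 and 11.17. H2ac19 went the other way, from 7.70, 8.19, 7.86 and 8.11 to 9.92, 9.81, 9.53 and 10.16, and rose by 1.89 (SE 0.12). The groups do not overlap for either gene. H2ac18, whose transcript is nearly the same as that of H2ac19 so that probes may read both, rose by 1.87, and H1f2, a linker histone, by 1.38. Genes of this family are close copies, so the assignment of a probe to a single copy is uncertain.

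CDK inhibitors and pocket proteins went both ways, with 5 of 15 rising (33.3%) and 4 falling (26.7%). These shares are not far from the 24.2% and 21.2% of all genes. Cdkn1a (p21), the inhibitor that enforces exit from the cell cycle in muscle, stood at 11.56, 11.74, 11.84 and 11.67 on day 0 and at 12.14, 12.01, 12.06 and 12.03 on day 1. The groups do not overlap, yet the rise of 0.36 (SE 0.08, adjusted p = 0.00194) was under the 1.15 of control cells, which reached 12.97 to 13.33. That difference passed with an adjusted p of 0.00183. Rbl1 (p107), a pocket protein of cycling cells, fell by 1.05. Gadd45g fell by 1.03, opposite to Gadd45a.

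The Id genes and Notch pathway were split as well, with 6 of 18 rising and 6 falling. The inhibitors Id1, Id2 and Id3, which sequester the E-protein partners of MyoD, all fell. Id1 went from 9.64, 9.64, 9.73 and 9.60 to 7.99, 8.33, 8.01 and 8.36, a fall of 1.48 (SE 0.09, adjusted p = 2.46e-09). All 4 day 1 samples were below all 4 day 0 samples. Id3 fell (-1.39), as did Id2 (-1.37, or -0.64 as the mean of its probes), and the Notch receptor Notch3 rose by 0.89. Control cells had like changes in Id1 (-1.69) and Id3 (-1.86).

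Among 12 myogenic regulators 4 rose and 2 fell (median 0.07). Myog, the factor that commits myoblasts to differentiation, was at 6.77, 6.75, 6.79 and 7.14 on day 0, with 3 of the 4 samples under the detection level, and at 7.46, 7.71, 7.98 and 8.4 on day 1. Every day 1 sample was above every day 0 sample, and the rise was 1.02 (SE 0.24, adjusted p = 0.00277). Control cells rose by 2.29, and the difference of -1.27 did not pass (adjusted p = 0.054). Myod1, which is already on in myoblasts, went from 8.87, 8.90, 8.89 and 8.97 to 8.19, 8.34, 8.55 and 8.79, a fall of 0.44 (SE 0.12, adjusted p = 0.00904). Its day 1 samples were spread more widely than its day 0 samples, with replicate 4 nearest to day 0, and the control change of 0.16 did not pass (adjusted p = 0.415). Tead4, a factor that MyoD turns on in mouse cells, fell by 0.29. Within the 6 dimmer arrays the changes of Myog (0.58) and Myod1 (-0.64) kept their sign and missed the threshold, and that of Tead4 came to 0.01. Hdac5, a class II deacetylase that binds MEF2, rose by 1.08 and Eya1, a transcriptional co-activator of myogenesis, by 0.47. Mef2c did not pass (0.11, adjusted p = 0.22).

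**Figure D2:**
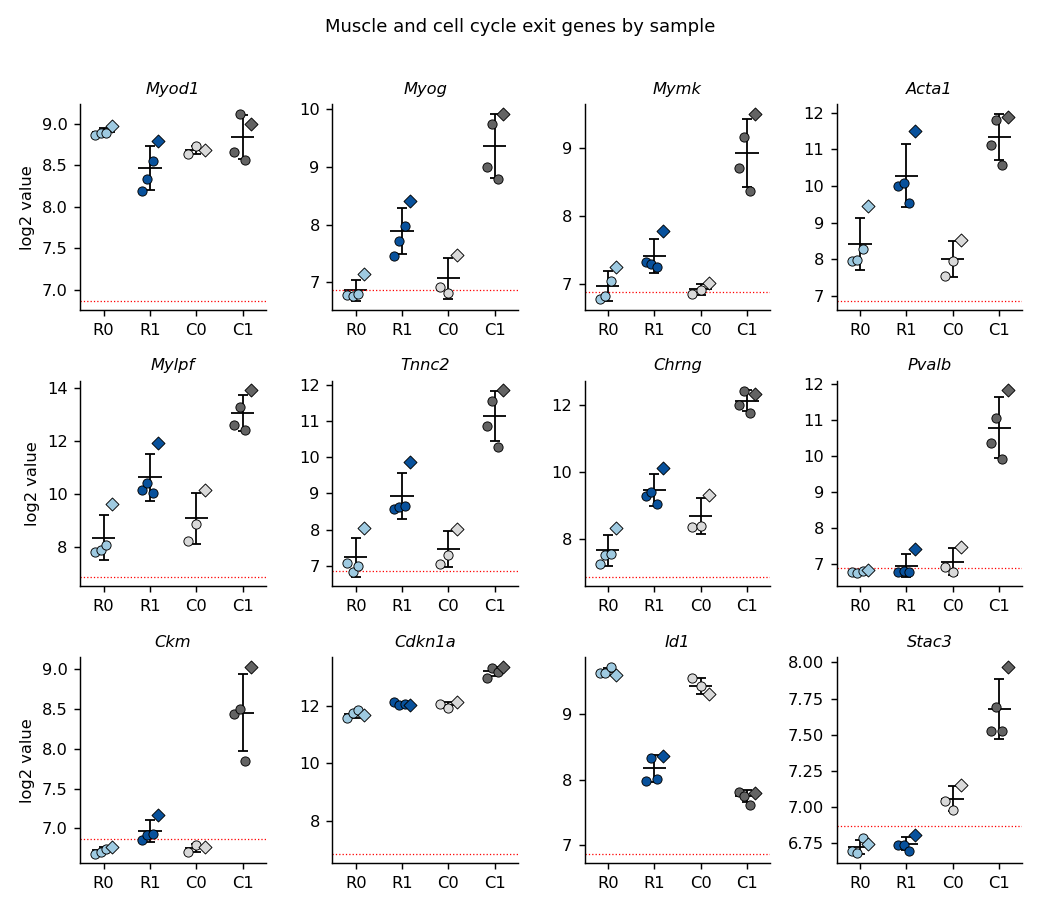
Log2 expression (y axis) of 12 genes in each sample of the knockdown cells (R0 for day 0, R1 for day 1) and control cells (C0, C1), with bars for the mean ± SD, diamonds for replicate 4 and a dotted line at the detection level of 6.87. Knockdown samples of Acta1, Mylpf, Tnnc2 and Chrng rise from day 0 to day 1 and stay mostly below the control samples of day 1, Pvalb stays near the detection level in the knockdown cells, and Stac3 is below it in all of them.

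Thin and thick filament genes rose more often than the 24.2% of all genes, and Z-disc genes about as often. Of 17 thin filament and troponin genes 10 rose and 1 fell (median 0.54), of 9 thick filament and myosin genes 5 rose and 0 fell (median 0.31), and of 17 Z-disc and scaffold genes 5 rose, which is 29.4%, and 1 fell (median 0.16). The control medians were 1.31, 1.26 and 0.49. The test of the difference was negative and passed for 4 of the 17 thin filament genes, 1 of the 9 thick filament genes and 4 of the 17 Z-disc genes, against 2.7% of all genes. In bulk RNA fewer differentiating cells and less RNA per cell cannot be told apart.

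Acta1, skeletal muscle actin, was at 7.95, 7.98, 8.27 and 9.46 on day 0 and at 9.99, 10.09, 9.54 and 11.51 on day 1. Day 0 replicate 4 was well above its group, and the lowest day 1 sample was only just above it. The rise was 1.86 (SE 0.42, adjusted p = 0.00195) against 3.34 in control cells, a difference that did not pass (adjusted p = 0.201). Mylpf was at 7.83, 7.91, 8.10 and 9.62 on day 0 and at 10.14, 10.41, 10.03 and 11.93 on day 1. As for Acta1, replicate 4 was highest on each day, and in control cells too it was the highest sample of its group for both genes on each day. Its rise was 2.27 (SE 0.50, adjusted p = 0.00178) against 3.97 in control cells. Actc1 went from 6.93, 7.03, 7.21 and 8.22 to 9.07, 9.01, 9.20 and 10.49 (rise 2.09, SE 0.35, adjusted p = 0.000148). Tnnc2, fast troponin C, went from 7.08, 6.83, 6.99 and 8.03 to 8.57, 8.63, 8.65 and 9.86 (rise 1.69, SE 0.36, adjusted p = 0.00135), and Tnnc1, slow troponin C, rose by 1.61.

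Without replicate 4 on both days, a choice made after its values were seen, Acta1 rose by 1.80 (adjusted p = 0.00032) and the thin filament median was 0.51. Within the 6 dimmer arrays, which hold replicate 4 of day 0 but not of day 1, the thin filament median was 0.27 and the thick filament median 0.09. There Acta1 (0.27), Mylpf (0.45), Tnnc1 (0.27) and Tnnc2 (0.60) missed the threshold. Within the 12 brighter arrays the medians were 0.56 and 0.38. Of the thick filament list, Trim54, a muscle ubiquitin ligase of the sarcomere, rose by 0.31, but by only 0.14 within the 6 dimmer arrays. Among the Z-disc genes Pdlim3 led. Without day 0 replicate 1, day 0 replicate 2, day 1 replicate 4 or replicate 4 on both days the count of Z-disc genes that rose was 3. Actn3, the fast-fibre alpha-actinin of the Z-disc list, rose by 0.92, under the 2.45 of control cells (adjusted p of the difference 0.000326). Myom2, the M-band protein of the thick filament list, rose by 1.02. The Z-disc gene that fell was Ankrd1, a stretch-responsive repeat protein (-0.81), and the thin filament gene that fell was Tpm3, a tropomyosin also used outside muscle (-0.56), singled out after its values were seen.

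Of 21 genes for excitation-contraction coupling and the calcium store, the process in which Stac3 acts, 4 rose and 0 fell (median 0.16). The share that rose, 19%, was below the 24.2% of all genes. In control cells 11 rose, and the difference was negative and passed for 5 of the 21, against 2.7% of all genes. Atp2a1, the calcium pump SERCA1, rose by 1.12 (SE 0.30, adjusted p = 0.00643), Cacng1, the gamma subunit of the voltage sensor, by 0.98, and Bin1, a membrane-bending protein of T-tubules, by 0.78. Jsrp1, a junctional protein of the sarcoplasmic reticulum, rose by 0.36 against 0.88 in control cells (adjusted p of the difference 0.0144). Within the 6 dimmer arrays the change of Atp2a1 was 0.22 and missed the threshold. Pvalb, the calcium buffer parvalbumin, is the member with the largest difference from control. It was at 6.76, 6.73, 6.79 and 6.83 on day 0 and at 6.78, 6.80, 6.78 and 7.42 on day 1, so that only day 1 replicate 4 exceeded the detection level. The control samples of day 1 were at 10.37, 11.05, 9.91 and 11.83. The difference in change was -3.57 (adjusted p = 0.000436), and the change in knockdown cells did not pass (0.16, adjusted p = 0.708).

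Of 9 acetylcholine receptor and junction genes 5 rose (55.6%) and 0 fell in knockdown cells (median 0.57), and 5 rose and 0 fell in control cells (median 0.62). The difference was negative and passed for 2 of the 9, against 2.7% of all genes. The list mean lay at 9.238 to 9.406 on day 0 and at 9.788 to 10.293 on day 1 in knockdown cells. In control cells it lay at 9.513 to 9.693 and at 10.345 to 10.747. Without replicate 4 on both days the knockdown median was 0.37 and without day 1 replicate 4 alone also 0.37, and with the array set as a block 8 genes rose. Chrng was at 7.27, 7.53, 7.56 and 8.32 on day 0 and at 9.27, 9.4, 9.05 and 10.12 on day 1. The groups do not overlap, and replicate 4 was the highest sample on each day (rise 1.79, SE 0.27, adjusted p = 4.93e-05, or 0.92 as the mean of its probes). Control samples of day 1 lay higher, at 11.99, 12.42, 11.75 and 12.33. Rapsn, the scaffold that clusters the receptor, rose by 1.31, Chrna1, the alpha subunit, by 0.62, Chrnd, the delta subunit, by 0.61 and Agrn, agrin, by 0.45. For Chrnd the control rise of 1.61 was larger (adjusted p of the difference 0.00183). In the dystrophin complex and its membrane partners 6 of 10 rose and 0 fell (median 0.37), among them the laminin receptor Itga7 (1.07), dystroglycan Dag1 (0.90), and the Popeye proteins Popdc3 (0.80) and Bves (0.65).

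Fusion and adhesion genes showed little common movement, with 7 of 22 rising, 2 falling and a median of 0.05. Mymk (myomaker), the membrane protein that myoblasts need to fuse, was at 6.77, 6.82, 7.03 and 7.25 on day 0 and at 7.33, 7.29, 7.25 and 7.78 on day 1. The lowest day 1 value equals the highest day 0 value, and the change of 0.44 (SE 0.19) did not pass (adjusted p = 0.0796), though it did in a fit of the knockdown samples alone (adjusted p = 0.026). Control cells rose by 2.02, and the difference of -1.58 passed (adjusted p = 0.00579). Cav1, caveolin 1, rose by 0.70, Vcam1, an adhesion receptor, by 0.67 and Cdh15, M-cadherin, by 0.59, the last missing the threshold within the 12 brighter arrays (0.41, adjusted p = 0.0577). Jam2, a junctional adhesion molecule, fell by 0.63, but missed the threshold within the 6 dimmer arrays (-0.40, adjusted p = 0.177).

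Muscle energy genes moved up in control cells and both ways in knockdown cells. Of 18 measured, 5 rose and 3 fell in the knockdown cells (median 0.07), and 10 rose and 0 fell in control cells (median 0.71). The difference was negative and passed for 8 of the 18, against 2.7% of all genes. The list mean lay at 8.409 to 8.446 on day 0 and at 8.517 to 8.643 on day 1 in knockdown cells, and at 9.113 to 9.529 on day 1 in control cells. Without day 0 replicate 2, 3 or 4 the count that rose was 3. Ckm, muscle creatine kinase, was at 6.68, 6.70, 6.75 and 6.77 on day 0 and at 6.86, 6.91, 6.93 and 7.17 on day 1. All 4 day 0 samples were below the detection level, and the change did not pass (0.24, adjusted p = 0.262), though it did in a fit of the knockdown samples alone (adjusted p = 0.02). The control rise was 1.70 (adjusted p of the difference 0.00313). Pgam2, the muscle phosphoglycerate mutase, changed by 0.11 against 1.82 (adjusted p of the difference 0.00549). Eno3, muscle enolase, fell by 0.70 while the control change of 0.21 did not pass (adjusted p of the difference 0.00206). The members that rose include Ckb, brain-type creatine kinase (1.09), and Fabp3, a fatty acid carrier (0.90).

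**Figure D3:**
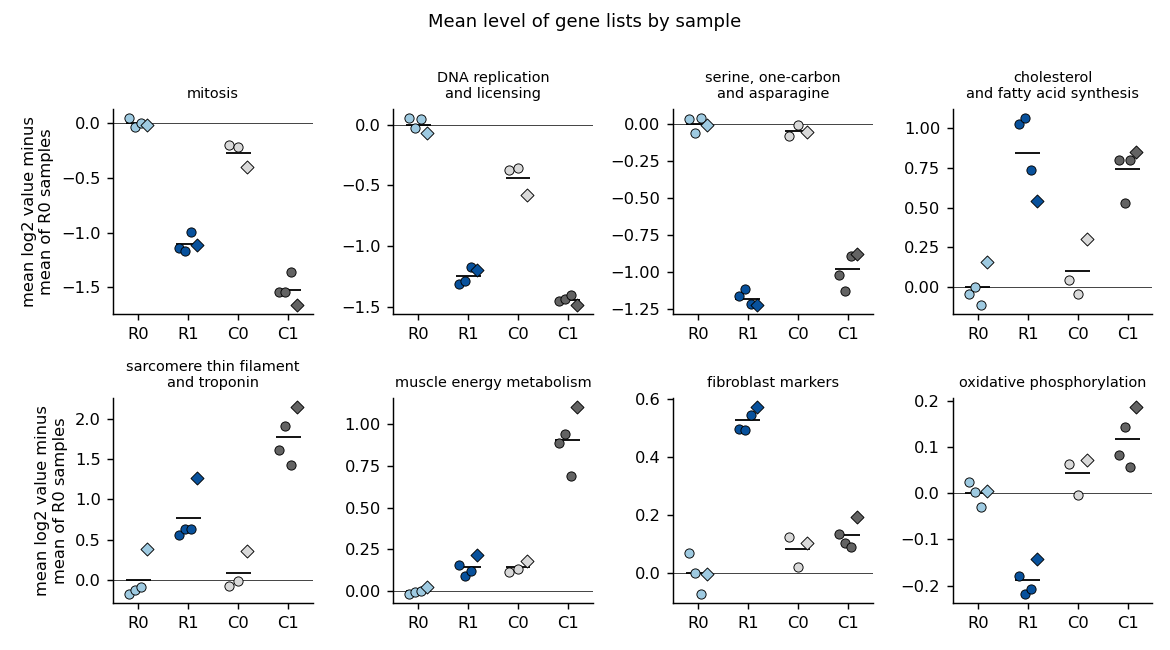
Mean log2 level of 8 gene lists in each sample, shown as the difference from the mean of the knockdown samples at day 0 (y axis), for knockdown day 0 and day 1 (R0, R1) and control day 0 and day 1 (C0, C1), with lines for group means and diamonds for replicate 4. The replication and mitosis lists fall in both treatments, and the muscle energy list separates the control samples of day 1 from all knockdown samples.

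Of 23 fibrillar collagen and matrix glycoprotein genes 11 rose (47.8%) and 4 fell (17.4%), with a median of 0.17. Over all genes 24.2% rose and 21.2% fell. In control cells 8 of the 23 rose and 4 fell (median 0.01), and the difference passed for 0 of the 23. After Dcn, the list was led by Col3a1 (1.20, SE 0.10), the collagen of reticular fibres, Fn1 (0.99), fibronectin, and Loxl1 (0.90), a collagen and elastin cross-linking oxidase. Tnc, tenascin C, fell by 0.71. Without day 0 replicate 4 or day 1 replicate 1 the count of falls was 2. Mgp and Mfap2 are not in this list. Mgp went from 11.78, 12.51, 11.94 and 11.92 to 14.31, 14.61, 14.14 and 14.55, a rise of 2.37 (SE 0.14) against 1.16 in control cells (adjusted p of the difference 0.00348). Mfap2, a microfibril protein of elastic fibres, rose by 1.09, whereas the control change of 0.09 did not pass (adjusted p of the difference 0.00079). Of 10 basement membrane genes 4 rose (40.0%) and 0 fell. In control cells 2 rose and 2 fell, and the difference passed for 0 of the 10.

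Matrix proteases and their inhibitors went both ways, with 6 of 12 rising and 3 falling. Mmp2 was at 10.16, 10.29, 9.90 and 10.62 on day 0 and at 12.50, 12.56, 12.50 and 12.65 on day 1. The day 1 samples were close to each other and all higher (rise 2.32, SE 0.18, adjusted p = 6.95e-08). Mmp10, a stromelysin, rose by 1.27 and Mmp14, the membrane protease that activates pro-MMP2, by 0.85. Plaur, the urokinase receptor, fell by 0.92. Htra3, a secreted serine protease, rose by 1.98 against 0.81 in control cells (adjusted p of the difference 0.0158).

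Of 21 genes of TGF-beta, BMP and follistatin signalling 9 rose and 4 fell (median 0.18). Bmp4, a ligand that opposes myogenic differentiation, rose by 1.71 (SE 0.21, adjusted p = 8.66e-06, or 0.91 as the mean of its probes), the receptor Tgfbr2 by 1.13 and the signal transducer Smad3 by 0.82. Inhba, the activin A subunit, fell by 0.62 against -1.23 in control cells, a difference that passed (adjusted p = 0.0208) but not without control day 0 replicate 4 (adjusted p = 0.0563). Over the list the difference was positive and passed for 3 of 21 genes and negative for 1, against 2.77% and 2.7% of all genes. In control cells Bmp4 rose by 0.99, Tgfbr2 by 0.76 and Smad3 by 0.53, and the differences of these 3 did not pass (adjusted p = 0.22, 0.157 and 0.18).

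Cholesterol and fatty acid synthesis rose nearly throughout. Of 23 measured genes 21 rose and 0 fell (median 0.76, control median 0.59), against 24.2% of all genes that rose. Fdps, farnesyl diphosphate synthase, was at 12.02, 12.34, 12.16 and 12.43 on day 0 and at 13.90, 13.89, 13.53 and 13.36 on day 1. All day 1 samples were higher, with replicates 3 and 4 the lowest of them (rise 1.43, SE 0.14, adjusted p = 1.01e-06). Mvd was at 7.99, 8.37, 8.22 and 8.71 on day 0 and at 10.96, 10.65, 10.24 and 9.44 on day 1. Replicate 4 had the highest value of day 0 and the lowest of day 1, and the groups did not overlap. Nsdhl (1.40) and Cyp51 (1.30) act further down the same route, and Nsdhl missed the threshold within the 6 dimmer arrays (0.81, adjusted p = 0.303). The list mean was 9.906, 9.943, 9.621 and 9.421 on day 1 against 8.769 to 9.038 on day 0. Without replicate 4 on both days the median was 0.96, and within the 6 dimmer arrays it was 0.70, with 12 genes passing.

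Serine and one-carbon metabolism fell in all 11 measured genes (median -1.19, control median -1.02). Phgdh, which opens the serine route, fell (-1.82), as did Shmt2, which passes a carbon unit from serine to folate (-1.57). Mthfd2 went from 11.25, 10.90, 11.17 and 11.07 to 9.02, 9.19, 9.38 and 9.36. The groups are well separated, and the change of -1.86 (SE 0.09) was larger than the -1.17 of control cells (adjusted p of the difference 0.00716). Psat1, the second enzyme of the serine route, went from 12.34, 12.16, 12.21 and 11.97 to 11.20, 11.06, 11.03 and 10.69. It fell by 1.18 (SE 0.11), whereas the control change of -0.19 did not pass (adjusted p of the difference 0.00274). Asns, asparagine synthetase, changed by -1.77 against -1.18 in control cells (adjusted p of the difference 0.00861).

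Ribosome biogenesis genes fell, 17 of 20 (median -0.74, control median -0.63). Nop56 (-1.46) and Nop58 (-1.41), core proteins of the snoRNPs that methylate ribosomal RNA, led with Rrp12 (-1.39), and nucleolin (Ncl) fell by 0.94. Of the 25 cytosolic ribosomal protein genes 6 rose and 6 fell (24.0% each), and without day 1 replicate 3 the number up was 3. In control cells 0 rose and 8 fell (median -0.11). The difference was positive and passed for 3 of the 25, against 2.77% of all genes, and negative for 0.

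Oxidative phosphorylation genes fell in 12 of 30 cases and rose in 1 (median -0.16, control median 0.02). The difference from control was negative and passed for 10 of the 30, against 2.7% of all genes. Cycs, cytochrome c, was at 12.05, 12.05, 11.98 and 12.03 on day 0 and at 10.86, 10.86, 10.84 and 11 on day 1. The samples of a day lay close together, and the change was -1.14 (SE 0.05, adjusted p = 2.26e-10), or -0.66 as the mean of its probes. In control cells it went from 11.92, 11.91 and 11.90 to 11.61, 11.77, 11.67 and 11.71, a change of -0.22. The difference of -0.92 passed with an adjusted p of 7.58e-06. Ndufa5, a complex I subunit, fell (-0.67), as did Cyc1, cytochrome c1 (-0.60), while the subunit Ndufa1, singled out after its values were seen, rose by 0.44.

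Glycolysis split, with 4 of 16 rising and 6 falling (median -0.05), against 8 rising and 1 falling in control cells (median 0.20). Aldoc, aldolase C, rose by 1.49 and Pgam1, the non-muscle mutase, fell by 0.56. Tpi1, triosephosphate isomerase, and Pkm, pyruvate kinase, singled out after their values were seen, fell in knockdown cells (-0.32 and -0.29) and rose in control cells (0.32 and 0.29), and both differences passed (adjusted p = 0.00589 and 0.00953). Within the 6 dimmer arrays the knockdown changes of Tpi1 (-0.09) and Pkm (-0.30) missed the threshold.

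Of 15 heat shock and chaperone genes 8 fell and 2 rose (median -0.30), led by Hsp90aa1 (-1.02), the inducible HSP90, and Hspd1 (-0.98), the mitochondrial HSP60. Of 21 ER stress genes 12 fell and 3 rose (median -0.32), with Chac1 (-1.76), which degrades glutathione, Trib3 (-1.05), a pseudokinase induced by ATF4, and Sdf2l1 (-0.73), an ER chaperone cofactor. The control medians were -0.29 and -0.46. The number that rose was 1 without day 0 replicate 2, day 1 replicate 2 or day 1 replicate 4 in the ER stress list, and 1 without day 0 replicate 2 or 3 or day 1 replicate 1, 2 or 4 in the chaperone list.

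**Figure D4:**
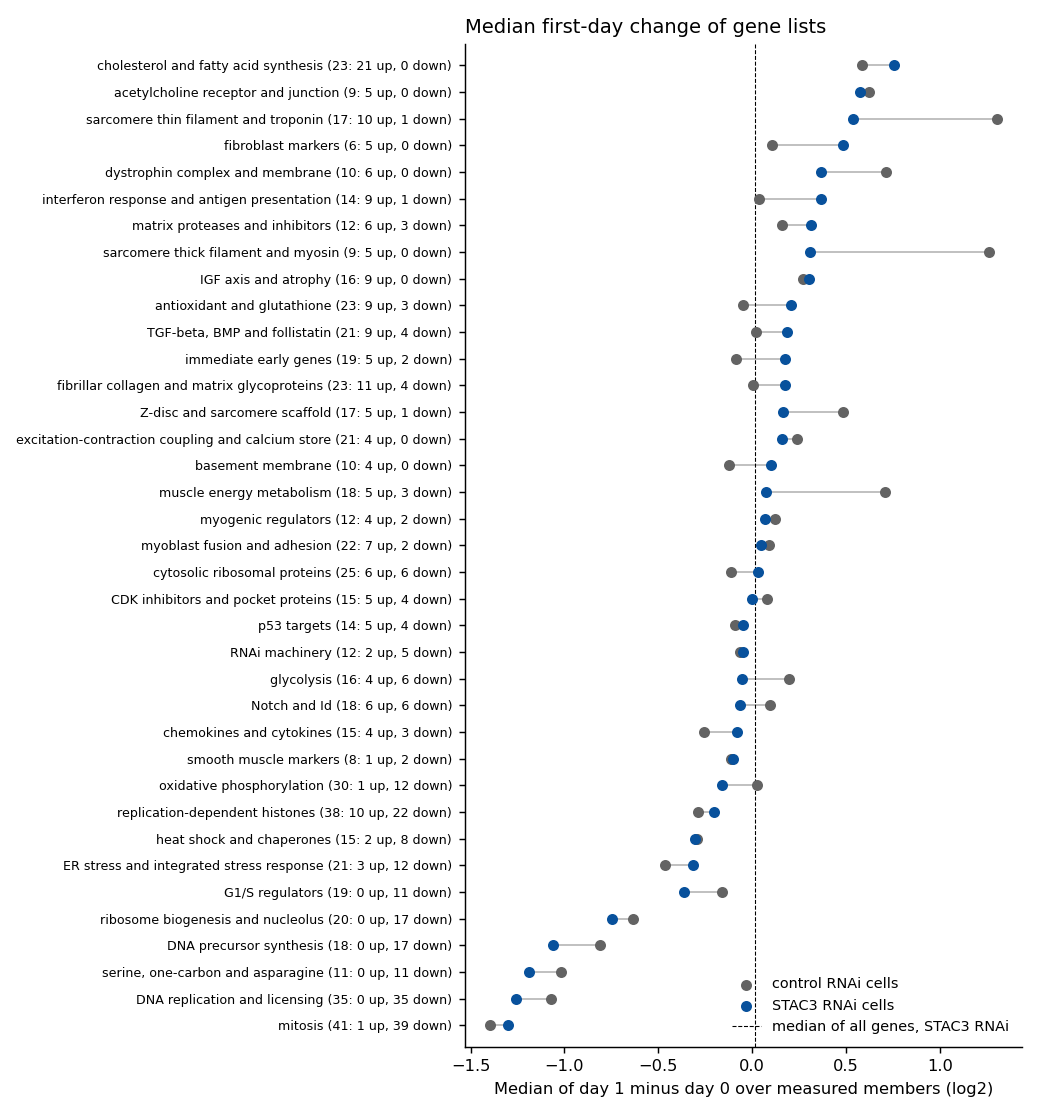
Median log2 change from day 0 to day 1 of each gene list with at least 5 measured genes (1 row each), in knockdown and control cells, with a dashed line at the median of all genes, 0.016. The mitosis, replication, DNA precursor and serine lists are lowest in both treatments. The thin filament, thick filament and muscle energy lists show the widest gaps between treatments.

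In several lists the share of genes that rose was near the 24.2% of all genes. Among them were muscle energy (27.8%), chemokines (26.7%), immediate early genes (26.3%), glycolysis (25.0%) and ribosomal proteins (24.0%), so these counts do not set the lists apart. The share was 31.8% to 35.7% for the fusion, CDK inhibitor, Notch and Id, myogenic regulator and p53 lists.

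Of 16 genes of the IGF axis and of muscle atrophy 9 rose and 0 fell (median 0.31, control median 0.27). Igfbp4, which binds IGFs outside the cell, was at 7.60, 7.95, 8.06 and 7.51 on day 0 and at 9.61, 9.60, 8.95 and 8.87 on day 1, a rise of 1.48 (SE 0.20, adjusted p = 1.66e-05) with no overlap. The atrophy ubiquitin ligase Fbxo32 rose by 1.15, Igfbp5 by 0.93 and the IGF2 receptor Igf2r by 0.71, and the control rises of these 3 were 1.18, 0.77 and 0.93. Among 14 p53 targets 5 rose and 4 fell, and of the 4 with the largest changes Bbc3 and Sesn2 are not described. Sesn1, sestrin 1, which restrains mTORC1, rose by 1.90 (SE 0.08) against 0.94 in control cells (adjusted p of the difference 0.000365), and Trp53inp1 rose by 1.00. Without day 0 replicate 4 the number that rose was 3.

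Of 14 interferon response and antigen presentation genes 9 rose (64.3%, against 24.2% of all genes) and 1 fell (median 0.37). In control cells 6 rose and 0 fell (median 0.04), and the difference passed for 1 of the 14, Gbp2. B2m, the light chain of MHC class I, rose by 0.88 (SE 0.07), the GTPase Gbp2 by 0.61 and the factor Irf1 by 0.41. For Gbp2 the control change of -0.04 did not pass, and the difference did (adjusted p = 0.00726). Isg15, a ubiquitin-like protein singled out after its values were seen, fell by 0.48. Isg15 (-0.08, adjusted p = 0.656) and Irf1 (0.20, adjusted p = 0.307) missed the threshold within the 6 dimmer arrays. Of 15 chemokine and cytokine genes 4 rose and 3 fell. Ccl9 (1.65) and Ccl8 (0.97) rose, Vegfa (-0.69) and Csf1 (-0.36) fell, and Csf1 fell further in control cells (-1.14, adjusted p of the difference 0.00605). Of 19 immediate early genes 5 rose and 2 fell, with Klf4 at 0.81, Egr1 at 0.45 and the serum response factor Srf at -0.47. The number that fell was 1 without day 0 replicate 1, 2 or 3 or day 1 replicate 2 or 4, and the number that rose was 3 without day 0 replicate 4 or day 1 replicate 3.

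Of 23 antioxidant and glutathione genes 9 rose and 3 fell. Mgst1, a membrane glutathione transferase, was at 7.84, 7.73, 7.5 and 7.62 on day 0 and at 9.67, 9.42, 8.70 and 8.65 on day 1. All day 1 samples were higher, replicates 1 and 2 most (rise 1.44, SE 0.20, adjusted p = 2.47e-05). In control cells it did not pass (-0.05, adjusted p = 0.889), and the difference of 1.49 passed (adjusted p = 0.0089). Gstm1 (1.11) and Gstm2 (1.10) rose and heme oxygenase Hmox1 fell by 0.90. Of 12 genes of the RNAi machinery itself 2 rose (16.7%) and 5 fell (41.7%), with a median of -0.05. In control cells 2 rose and 4 fell, and the difference passed for 0 of the 12. The number that rose in knockdown cells was 1 without day 0 replicate 1, 2 or 3 or day 1 replicate 4.

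Of 6 measured fibroblast markers 5 rose (83.3%, against 24.2% of all genes) and 0 fell (median 0.48), and 0 rose and 1 fell in control cells. The difference was positive and passed for 2 of the 6, against 2.77% of all genes. The mean level of the list lay at 7.701 to 7.842 on day 0 and at 8.266 to 8.344 on day 1 in knockdown cells, and at 7.862 to 7.966 on day 1 in control cells. Dpt, a dermal matrix protein, was at 6.83, 6.77, 6.70 and 6.68 on day 0, below detection in all 4, and at 7.80, 7.80, 8.38 and 7.55 on day 1, at least 2.01-fold higher (adjusted p = 2.29e-06). The control change of 0.22 did not pass, and the difference did (adjusted p = 0.0101). Pi16, also below detection on day 0, was at least 1.30-fold higher, Cd34 rose by 0.61 and Pdgfra, the receptor of mesenchymal progenitors, by 0.50. The difference for Pdgfra (0.43, adjusted p = 0.0341) was lost without any of 8 of the 15 samples. The rises of the fibroblast markers accompany the matrix rises described above, and their part in them was not tested. Of 8 smooth muscle markers 1 rose (12.5%) and 2 fell (25.0%), with Actg2 at -1.10 and Tagln at -0.69. The share that fell was near the 21.2% of all genes, and in control cells 1 rose and 2 fell as well. Actg2 missed the threshold within the 12 brighter arrays (-0.84, adjusted p = 0.062). Of 3 measured adipocyte markers, named after their values were seen, Lpl, lipoprotein lipase (0.58), and Cebpa (0.23) rose and Pparg (-0.46) fell, and in control cells 0 rose and 2 fell. For Lpl the control change was -0.53, and the difference passed (adjusted p = 0.0115). Without replicate 4 on both days 1 of the 3 rose and 1 fell. Lpl (0.05, adjusted p = 0.929), Cebpa (0.25, adjusted p = 0.378) and Pparg (-0.05, adjusted p = 0.895) missed the threshold within the 6 dimmer arrays. Cebpa and Pparg also missed it without some single knockdown samples (adjusted p up to 0.0684 and 0.0644). The mean of these markers lay at 8.42 to 8.6 on day 0 and at 8.54 to 8.70 on day 1 in knockdown cells, and at 8.01 to 8.29 on day 1 in control cells. Of the macrophage list 1 gene was measured and it did not pass, and of 3 bone and cartilage markers 0 passed.

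The change itself differed between treatments for 555 genes (5.47%), of which 281 were more positive (2.77%) and 274 more negative (2.7%) in knockdown cells. Counted by probe, 411 were more positive (2.23%) and 454 more negative (2.47%). This count depends on single samples. Without control day 0 replicate 2 it was 228 and 242, and without control day 0 replicate 3 it was 232 and 221. Without day 0 replicate 3 of the knockdown the number more negative was 288, and without day 1 replicate 2 it was 272. The 6 dimmer arrays, with 1 day 0 array of each treatment, cannot decide whether the changes differ. Of the genes that rose in knockdown cells, 935 did not pass in control cells, and for 125 of these the difference passed. Of those that fell, 659 did not pass in control cells, and the difference passed for 56. A further 36 genes passed in both treatments in opposite directions, 18 each way.

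**Figure D5:**
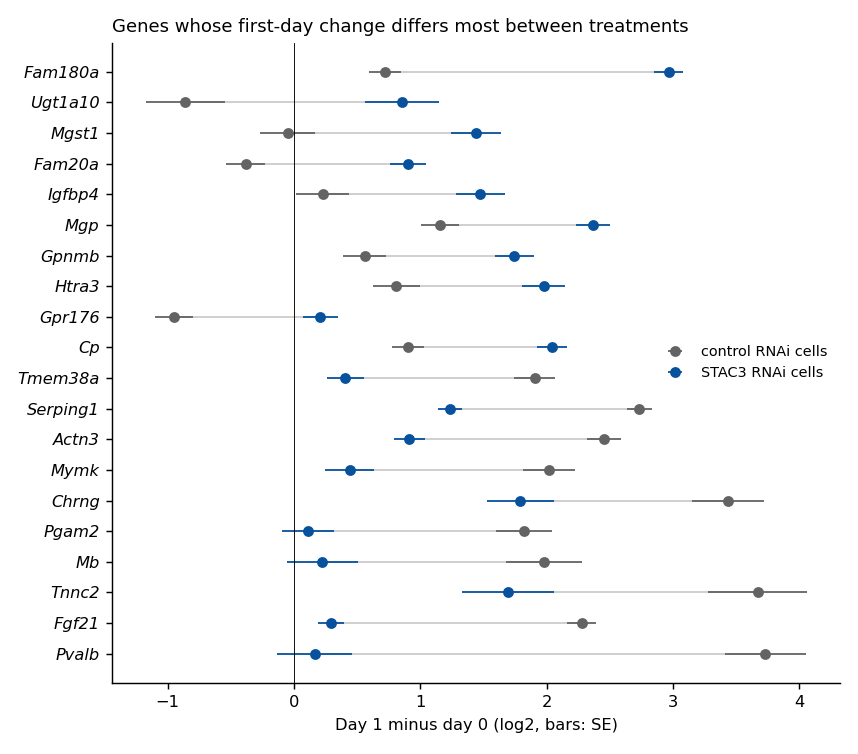
Log2 change from day 0 to day 1 with its SE in knockdown and control cells (x axis) for the 10 genes with the largest positive and the 10 with the largest negative difference between treatments. In the negative group the control change is the more positive of the 2, with Pvalb furthest apart, and in the positive group the knockdown change is, with Fam180a furthest apart.

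Most of the 10 most negative differences were in genes of the muscle lists. Besides Pvalb, Pgam2, Mymk and Actn3, they include Fgf21 (-1.98, adjusted p = 5.01e-06), a stress hormone that rose by 2.28 in control cells and by 0.29 in knockdown cells, Serping1 (-1.50, adjusted p = 3.21e-05), the C1 inhibitor, which rose in both, and Tmem38a (-1.50, adjusted p = 0.00177), a cation channel of the sarcoplasmic reticulum. The small knockdown rises of Fgf21 and Tmem38a were not stable, with changes of 0.24 to 0.34 for Fgf21, which missed the threshold without any of 5 of the 8 knockdown samples, and of 0.38 to 0.43 for Tmem38a, which missed it without any of the 8. The remaining 3 were less certain. The difference for Tnnc2 (-1.98, adjusted p = 0.0454) was lost without any of 11 of the 15 samples. That for myoglobin Mb (-1.76, adjusted p = 0.0237) was lost without knockdown day 1 replicate 2 or control day 0 replicate 2 or 3, and that for Chrng (-1.64, adjusted p = 0.0252) also without control day 1 replicate 2. Over the samples left out, the values were -2.29 to -1.71 for Tnnc2, -1.98 to -1.46 for Mb and -1.95 to -1.43 for Chrng, with adjusted p-values up to 0.126, 0.0749 and 0.0805.

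Among the 10 most positive differences Fam180a, of which little is known, was at 6.86, 6.99, 6.85 and 6.85 on day 0, with 1 sample above the detection level, and at 9.96, 9.74, 9.51 and 10.20 on day 1. It rose by 2.97 against 0.72 in control cells (difference 2.24, adjusted p = 5.01e-06). Mgst1, Mgp and Htra3 were given above, and the others include Fam20a (1.29, adjusted p = 0.00271), a pseudokinase of the secretory pathway, Gpnmb (1.19, adjusted p = 0.00854), a membrane glycoprotein, and Gpr176 (1.16, adjusted p = 0.00515), an orphan receptor that fell by 0.95 in control cells and did not pass in knockdown cells. Slc40a1 and Cp, which act together in iron export, each rose more than in control cells (difference 1.14 for both, adjusted p = 0.00206 and 0.00188). Ugt1a10 (1.72, adjusted p = 0.0332) lost its difference without any of 10 of the 15 samples, with adjusted p-values up to 0.0837. Igfbp4 (1.25, adjusted p = 0.0216) lost it without control day 0 replicate 2 or 3, where the largest adjusted p was 0.0679. Among the genes that moved in knockdown cells only by the test of the difference were Eva1b (1.26, difference 1.09), the receptor kinase Epha1 (1.15, difference 1.10), the guidance cue Slit2 (1.05, difference 1.02) and Nt5dc2 (-1.04, difference -0.95), with adjusted p-values of the difference of 0.000255, 0.0118, 0.00451 and 0.00589.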

How the data were processed

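RNA of 15 samples was measured on 18 Illumina mouse bead arrays, and samples were grouped by RNAi and day from the titles. The authors deposited log2 expression values normalised with lumi, per the submitters' processing notes, whose settings and version were not stated in the material at hand. They also deposited raw intensity values and detection p-values. These were used only to filter probes and to find the 2 array sets, because the names of 12 of the 18 intensity columns differ from the value column with the same ranking. Arrays of a sample were averaged. Probes with a detection p below 0.01 on at least 3 arrays were kept, 18408 of 24538. Of all probes 20685 have 1 gene, 8 several and 3845 none in the platform annotation, with symbols updated through RefSeq.

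A single limma fit (version 3.58.1, R 4.3.3) of all 4 groups gave the change in knockdown cells, in control cells and the difference of both, with Benjamini-Hochberg adjustment over all kept probes and a threshold of 0.05. The fit was tested on simulated data. A gene takes its kept probe with the highest mean. The genes and lists were chosen with earlier results of these data known. Among genes that pass and whose 2 knockdown groups do not overlap, the 15 largest rises and falls are named. The 4 largest changes of each list were chosen too, but not all are described. Left out were Atp5pb, Bbc3, Calr, Cdk2, Cdkn1c, Cox8b, Dicer1, Dusp1, H2-K1, Hspe1, Hsph1 and Hspg2. Also left out were Lama5, Lamb2, Ndrg1, Pfkp, Prkra, Rpl22, Rpl27, Rpl30, Rplp0, Sesn2, Tarbp2 and Tnrc6a. Whether or not the groups overlap, the 10 largest differences each way are named. So are, except for Clba1, the 10 largest changes that pass in knockdown cells and in the difference but not in control cells. Stac3, Myod1, Myog, Mef2c, Mymk, Ckm, Acta1, Cdkn1a, Ccnd1, Id1 and Id3 are named whatever their values, and Myf5 and Myh3, meant to be, were not among the genes tested. Actg2, Agrn, Cebpa, E2f1, H1f2, H2ac18, Isg15, Kif23, Lpl, Ndufa1, Pkm, Pparg, Tagln, Tead4, Tnc, Tpi1 and Tpm3 were named after their values were seen. Depth is not defined for arrays, and the number of arrays limits the precision. The alternatives tried covered the probe filter, the choice of probe, quantile normalisation, a floor at the detection level, a robust fit, a block for the array set or replicate number, each array set alone, and leaving out samples.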

Additional observations from a re-analysis of the deposited data

Results flagged for a closer look

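In a group of 4 samples, a sample counts as far from the others when its gap to its neighbour, as a share of the range, exceeds Dixon's critical value, and chance alone gives this in about 1 in 20 groups. Among 338 gene groups examined in the knockdown samples (169 genes on 2 days) this was so for 27, and in 20 of them the sample was replicate 4. Replicate 4 was the high sample of day 1 for Actc1 (0.876), Agrn (0.915), Atp2a1 (0.873), Cycs (0.837), Fabp3 (0.869), Fbxo32 (0.900), Mymk (0.853), Pgam2 (0.913), Pvalb (0.966), Rapsn (0.853), Tnnc1 (0.854) and Tnnc2 (0.936). It was the high sample of day 0 for Gadd45g (0.851), Mylpf (0.849), Myog (0.904), Pdlim3 (0.854) and Tnnc1 (0.875), and the low one for Ccne2 (0.900), Tead4 (0.833) and Tk1 (0.930). The other samples were day 1 replicate 3 for Aurka (0.845) and Bin1 (0.925), which were high, and for Hsp90aa1 (0.848) and Phgdh (0.855), which were low, day 1 replicate 1, low for H2ac11 (0.849), day 0 replicate 2, high for Fam180a (0.900), and day 0 replicate 3, low for Nop58 (0.831).

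Mean levels of whole lists gave 8 such cases in 74 groups. Replicate 4 of day 1 stood out in the thin filament (0.890), thick filament (0.912), IGF (0.847) and CDK inhibitor (0.841) lists, and replicate 4 of day 0 in the thin filament (0.852) and S phase entry (0.848) lists. The other 2 were day 1 replicate 3 for DNA precursors (0.842) and day 0 replicate 1 for the RNAi machinery (0.859).

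For 56 of the 169 genes named, the change differed between knockdown and control cells by the test of the difference. It was more negative in knockdown cells, on the log2 scale, for Pvalb (-3.57), Fgf21 (-1.98), Tnnc2 (-1.98), Mb (-1.76), Pgam2 (-1.71), Chrng (-1.64), Mymk (-1.58), Actn3 (-1.54), Serping1 (-1.50), Tmem38a (-1.50), Ckm (-1.46), E2f1 (-1.33), Tgm2 (-1.08), Chrnd (-1.01), Psat1 (-0.98), Nt5dc2 (-0.95), Cycs (-0.92) and Eno3 (-0.91). Smaller negative differences were those of Cdkn1a (-0.80), Mthfd2 (-0.69), Ankrd1 (-0.68), Tpi1 (-0.64), Ccne2 (-0.62), Stac3 (-0.60), Asns (-0.59), Pkm (-0.57), Ndufa5 (-0.55), Jsrp1 (-0.52), Rrm1 (-0.52) and Ccne1 (-0.46). It was more positive for Fam180a (2.24), Ugt1a10 (1.72), Mgst1 (1.49), Fam20a (1.29), Igfbp4 (1.25), Mgp (1.21), Gpnmb (1.19), Htra3 (1.17), Gpr176 (1.16), Cp (1.14), Slc40a1 (1.14), Lpl (1.11), Epha1 (1.10), Eva1b (1.09), Slit2 (1.02) and Mfap2 (1.00). Smaller positive differences were those of Sesn1 (0.95), Dpt (0.91), Csf1 (0.77), Egr1 (0.77), Ypel3 (0.72), H2ac15 (0.70), Gbp2 (0.65), H2ac18 (0.65), Inhba (0.61) and Pdgfra (0.43). Of these, 13 lost the call when some single sample was left out, namely Tnnc2, H2ac18, H2ac15, Ugt1a10, Pdgfra, Chrng, Mb, Ccne1, Igfbp4, Tgm2, Ankrd1, Inhba and Ndufa5, with the largest adjusted p at 0.126 for Tnnc2.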

How the results depend on the processing

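For the change in knockdown cells, 3807 probes rose and 3821 fell, and the counts stayed within 1.5 times of these under all alternatives but 1. Within the 6 dimmer arrays, which hold fewer samples, 1427 rose and 1576 fell, and in control cells 1059 and 1049. Leaving out 1 knockdown sample at a time gave 3404 to 3798 risen and 3476 to 3759 fallen probes, and leaving out replicate 4 on both days, chosen after seeing the data, 3552 and 3576. Among probes called both ways of processing, 0 changed sign under any alternative. Control cells, with 3267 risen and 3332 fallen probes, had 2656 to 3118 and 2756 to 3124 when 1 control sample was left out, also chosen after seeing the data. The difference of the changes was less stable. It passed for 411 and 454 probes. Without a knockdown sample it passed for 283 to 551 and 272 to 533, and without a control sample for 228 to 447 and 221 to 487. The lowest counts were 228 and 242 without control day 0 replicate 2, 232 and 221 without control day 0 replicate 3, 288 more negative without knockdown day 0 replicate 3, and 272 more negative without knockdown day 1 replicate 2. The cause was not tested.

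Same-numbered samples of day 0 and day 1 correlated in their deviations at 0.015, 0.079, -0.202 and 0.147, which over all genes is too low to treat the numbers as pairs. For muscle genes the number did go with the level, since replicate 4 had the highest mean of its group in all 4 groups for the thin filament list (8.623, 9.501, 8.605 and 10.385) and the thick filament list (7.957, 8.780, 8.039 and 9.637). A replicate block gave 3998 risen and 3944 fallen probes, and 526 and 576 for the difference, and with it Mymk passed (0.443, adjusted p = 0.0198). Of 161 named genes that passed, 34 lost the call under at least 1 alternative, 8 of them outside the 6 dimmer arrays. Those lost within these arrays include Agrn, Cdh15, Cdkn1a, Chrnd, Csf1, Dag1, Gstm1, Hmox1, Jsrp1, Ndufa1, Pi16, Pkm and Tpm3. The values that changed sign were Kif23 with the mean of its probes (-0.859), Mb (-0.447), Pgam2 (-0.033), Pvalb (-0.050), Stac3 (-0.037) and Tead4 (0.007) within the 6 dimmer arrays, and Stac3 without day 1 replicate 4 (-0.001, against up to 0.039 without another sample) or with a floor at the detection level (0). Probes near the detection level limit what the change of Stac3, Pvalb and Ckm can show. Keeping only probes detected on all 18 arrays, which leaves fewer genes, gave a median of 1.24 for the thin filament list and 0.50 for the IGF list. With the mean of all probes, further values moved by over 1.5 times were those of Bin1 (0.38), Chrnd (0.39), Epha1 (0.72), Eya1 (0.27), Fam20a (0.57), Fbxo32 (0.72), Fdps (0.93), Fn1 (0.51), Gpnmb (1.02), Gstm1 (0.58), H2ac18 (1.06), Htra3 (1.11), Irf1 (0.27), Jam2 (-0.41), Mfap2 (0.68), Myog (0.56), Tgfbr2 (0.73), Tnc (-0.30), Tpm3 (-0.33) and Trib3 (-0.54).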
